A study of Mus musculus with 8 samples.

Results

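Antibody chain transcripts were followed through the probes of a mouse gene expression array whose description names an immunoglobulin heavy, kappa or lambda chain. Non-control probes with that wording were taken, and descriptions with the words superfamily, receptor, binding or domain were left out. This gave 233 probes of the 56605 on the array, which read 209 segments or cDNAs: 20 probes for 11 constant segments, 210 for variable segments, 1 for the surrogate light chain Igll1 and 2 for other heavy chain cDNAs. The set was chosen by its description, but with earlier results in view: it was selected on the age difference measured in these same 8 arrays. The age contrast of its members is therefore given as a description and is not independent evidence of a direction. No p-value is given for a member, and the calls that members received in the fit over all probes are counted but support nothing.

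The livers came from male mice, 4 samples at 8 weeks of age (young replicates 1 to 4) and 4 at 80 weeks (old replicates 1 to 4). All 8 were taken 8 h after acetaminophen, and total RNA was labelled with Cy3 and hybridised to one-colour Agilent arrays. The sources used here give neither the strain nor the dose, and they do not say whether the samples were separate animals; p-values therefore measure only how these samples spread, and that spread may be technical. Untreated livers were not analysed here, so age at rest and an age-dependent response to the drug cannot be told apart. The young arrays filled row 1 of the slide and the old arrays row 2, so slide row and age cannot be told apart either.

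An antibody is built from paired heavy and light chains. Each chain joins a variable part, which is put together in each B cell from separate V, D and J segments (V and J in light chains), to a constant part that sets the isotype: mu, delta, gamma, epsilon or alpha for heavy chains, kappa or lambda for light chains. B cells carry the heavy chain in a membrane form, and plasma cells secrete large amounts of it through another 3′ end of the same transcript. In bulk liver RNA, fewer cells of a type and less RNA per cell cannot be told apart.

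The probes themselves show what was read. The 5 constant segment probes below lie in the body or at the coding end of their chains, so a variable part does not enter their sequence; capitals mark the stop codon where the probe ends on it. Positions are those of the array's annotation on mouse build mm9, and each sequence is 60 bases long and is written 5′ to 3′.
Ighm (mu, chr12:114659630-114659689, minus strand): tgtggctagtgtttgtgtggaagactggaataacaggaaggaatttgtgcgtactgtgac
Igha (alpha, chr12:114496985-114497044, minus strand): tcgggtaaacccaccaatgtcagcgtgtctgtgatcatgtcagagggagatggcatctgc
Ighg2b (gamma 2b, chr12:114544738-114544797, minus strand): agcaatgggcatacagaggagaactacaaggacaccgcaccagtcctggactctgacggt
Ighg2c (gamma 2c, chr12:114525600-114525659, minus strand): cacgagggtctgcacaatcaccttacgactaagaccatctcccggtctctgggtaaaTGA
Igkc (kappa, chr6:70676692-70676751, plus strand): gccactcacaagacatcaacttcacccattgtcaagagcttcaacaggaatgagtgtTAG

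The next pair shows how a rearranged transcript can be read. Both probes belong to the lambda variable segment Iglv1 and share a run of 54 bases; capitals mark the bases each does not share with the other. The first matches the unrearranged segment at chr16:19085111-19085170. The second is placed by the annotation from chr16:19063348 to 19085165, a span of 21818 bases, so its 3′ end continues in a joining segment.
Iglv1, germline probe: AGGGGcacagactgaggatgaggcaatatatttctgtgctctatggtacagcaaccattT
Iglv1, junction probe: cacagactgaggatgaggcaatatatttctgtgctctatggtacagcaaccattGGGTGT

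Of the 14 variable probes tested, 8 were above background on all 4 old arrays and on no young one. They passed the filter for testing only through the old arrays, so their difference was fixed by it. The sequences of 5 of these 8 follow. In Igkv5-39 capitals mark TATTACTG, the letters that lead into the conserved cysteine at the end of a variable segment. In Igkv4-68 and Igkv4-62 they mark the 5 bases at which these probes differ from each other, so the pair gives no independent readings.
Igkv5-39 (chr6:69850418-69850477, minus strand): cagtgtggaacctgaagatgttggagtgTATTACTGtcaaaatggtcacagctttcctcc
Igkv3-7 (chr6:70557842-70557901, plus strand): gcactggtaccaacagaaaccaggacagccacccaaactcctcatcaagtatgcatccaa
Igkv4-55 (chr6:69557315-69557374, minus strand): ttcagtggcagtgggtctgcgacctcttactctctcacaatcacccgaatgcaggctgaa
Igkv4-68 (chr6:69254828-69254887, minus strand): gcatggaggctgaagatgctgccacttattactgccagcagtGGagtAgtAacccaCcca
Igkv4-62 (chr6:69349806-69349865, minus strand): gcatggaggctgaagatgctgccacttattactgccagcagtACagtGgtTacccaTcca

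Across the series, 24538 to 28536 probes per array (43.3% to 50.4%) were well above background. Levels are log2 intensities after subtraction of the array's own 75th percentile, and differences are old minus young. Testing required a signal well above background on 4 or more of the 8 arrays. Of all probes, 25738 were tested, with a median difference of 0.01. Young replicates 1 and 2 stood apart from the other arrays: limma's array weights gave them 0.50 and 0.22, against 0.78 to 2.24 for the remaining 6. Counts that depend on them are given with and without them.

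Of the 233 immunoglobulin probes, 129 were above background on no array and 76 on 1 to 3 arrays. The remaining 28 were tested, 14 for constant and 14 for variable segments. Of these, 13 were above background on all 8 arrays, and 9 passed only through the 4 old arrays, so those 9 had to differ. All 28 had a positive difference, with a median of 2.75. In the limma fit over all tested probes, 13 of the 28 were called higher in old livers at an adjusted threshold of 0.05 and 0 lower; among all tested probes 0.284% were called higher and 0.0311% lower. For 21 of the 28 the old arrays all lay above the young ones, against 4.45% of all tested probes. With other filters the ages did not overlap for 56 of 233 members against 2.72% of all probes (no filter), for 52 of 104 against 4.18% (1 or more arrays above background) and for 7 of 13 against 4.32% (all 8 arrays). Because the contrast was known when the set was chosen, nothing is read from these shares. The count of 13 fell to 7 without young replicate 1 or without young replicate 2, to 6 without old replicate 3 or without old replicate 4, and to 1 without young replicates 1 and 2 together, when Igkv5-39 alone was called.

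The mu heavy chain, the isotype of the first antibody a B cell makes, gave the widest difference of the set. Its probe at the secreted 3′ end stood at 0.66, 0.21, 0.59 and 0.50 in young replicates 1 to 4 and at 6.79, 4.72, 5.65 and 7.18 in old replicates 1 to 4, a difference of 5.60 (SE 0.48), or 48.3-fold. Every old array lay far above every young one, with old replicates 4 and 1 highest. The probe in the part that both listed mu transcripts share stood between -5.22 and -3.64 in young and at 1.41, -1.07, 0.12 and 1.53 in old livers, a difference of 4.94 (SE 0.57). Only 1 young array showed it above background, so much of that difference comes from signal near the scanner's floor, and it was 2.33 under normexp background correction.

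A further mu probe behaved otherwise. It lies 2.21 kb downstream of the secreted end, where the membrane exons of the gene are, and the array lists it for another transcript than the secreted-end probe. Its levels were -1.24, -1.25, -0.50 and -0.72 in young and 0.14, -0.96, -0.48 and 0.80 in old livers, a difference of 0.80 (SE 0.37), and the ages overlapped. The level of the secreted end minus that of the membrane end therefore widened from 1.42 ± 0.35 to 6.21 ± 0.41 (SD, n = 4 each). Across the 4 old arrays this gap ran from 5.67 to 6.65, although the secreted end itself varied from 4.72 to 7.18. Both are probes with their own response to signal, so only the change of the gap between ages is comparable, not its size on an array. Delta, which naive B cells carry beside mu, was read by 1 tested probe, at -1.59, -2.06, -1.52 and -1.02 in young and -1.34, -2.12, -1.47 and -0.83 in old livers. Its difference was 0.11 (SE 0.31), its ages overlapped and its sign turned without young replicate 2 or old replicate 4. The other delta probe was above background on 1 young and 1 old array.

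**Figure D1:**
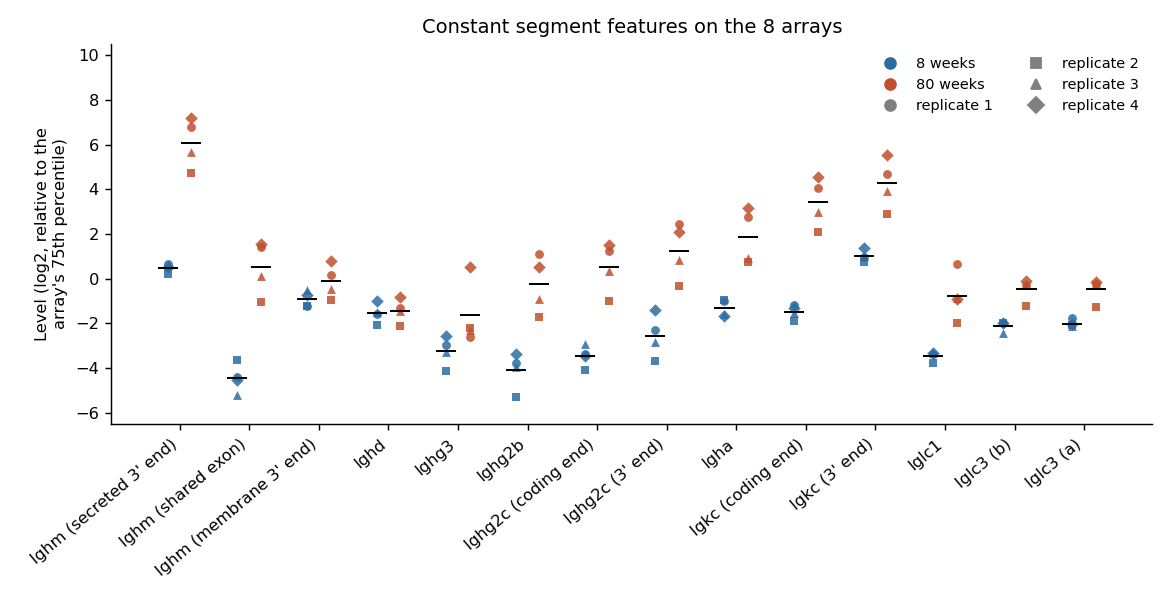
Levels of the 14 tested constant segment probes (log2, relative to the array's 75th percentile) on the 4 young (8 weeks) and 4 old (80 weeks) arrays; bars are group means and symbols are replicates. The ages do not overlap for 11 of the 14; they overlap for the membrane end of Ighm, for Ighd and for Ighg3.

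Among the gamma chains, which mark switched antibodies, Ighg2b and Ighg2c showed wide differences. Ighg2b was above background on no young array and on all old arrays, where it stood at 1.12, -1.71, -0.93 and 0.54; old livers were at least 8.25-fold higher. It is printed as 10 spots on each array, whose SD (log2) ran from 0.06 to 0.17 on old and from 0.41 to 0.62 on young arrays, so the spots were close together wherever there was signal. The coding-end probe of Ighg2c, above background on 1 young array, stood between -4.10 and -2.92 in young and at 1.26, -1.02, 0.32 and 1.5 in old livers, a difference of 3.98 (SE 0.52). A 3′ end probe of Ighg2c, which the array also lists for an Ighg2b transcript, differed by 3.81 (SE 0.65) and was above background on 2 young arrays. The remaining Ighg2c probe was above background on 3 old and no young arrays and was at least 3.01-fold higher. Under normexp the differences were 1.71 for Ighg2b and 2.25 and 2.45 for the coding-end and 3′ end probes of Ighg2c. For Ighg2b that is 3.28-fold, less than the bound of 8.25-fold.

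Ighg3 showed a pattern of its own. Its tested probe stood at -2.62, -2.19, -2.29 and 0.54 in old livers and at -2.97, -4.13, -3.29 and -2.55 in young ones, so a single array, old replicate 4, lay apart and the ages overlapped. Its difference was 1.60, and 0.85 under normexp. The array places this probe over 1532 bases of the gene, so it crosses a splice junction. Another Ighg3 probe was above background on old replicate 4 only, at -0.29, with the other 7 arrays between -5.96 and -4.46. Ighg1 was above background on 1 old array, and its probe is also listed for Ighg2c transcripts. Ighe, the chain of allergic responses, was above background on no array.

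Igha, the chain of mucosal antibodies, was above background on all 8 arrays. It stood at -1.01, -0.96, -1.60 and -1.68 in young and at 2.77, 0.72, 0.90 and 3.14 in old livers, a difference of 3.19 (SE 0.54) with no overlap, or 9.16-fold, and 5.40-fold under normexp. Old replicates 1 and 4 lay well above old replicates 2 and 3. A second Igha probe, which the array lists for another transcript and places further downstream, was above background on no array. A heavy chain cDNA placed at Igha was above background on 2 old arrays, at -1.30 and -1.83.

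The kappa light chain was read by a pair of Igkc probes, both above background on all 8 arrays. The coding-end probe stood at -1.17, -1.89, -1.55 and -1.31 in young and at 4.05, 2.07, 3.0 and 4.56 in old livers, a difference of 4.90 (SE 0.48), or 29.8-fold, and 16.0-fold under normexp. Its order over the old arrays was that of the secreted mu end, and its level minus that of the secreted mu end ran only from -2.74 to -2.62 over the 4 old arrays. The 3′ end probe stood between 0.74 and 1.36 in young and between 2.91 and 5.51 in old livers, a difference of 3.23 (SE 0.48). Each Igkc probe kept the ages apart, and their differences were 1.67 apart.

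The lambda chains differed less between ages. Iglc1, above background on 1 young array, stood between -3.79 and -3.34 in young and at 0.63, -1.98, -0.87 and -0.90 in old livers, a difference of 2.68 (SE 0.46) that was 1.29 under normexp; old replicate 1 was highest. The Iglc3 probes, which overlap by 42 bases and so are no independent readings, differed by 1.64 (SE 0.27) and 1.55 (SE 0.27), and by 0.93 and 0.89 under normexp. In old replicates 1, 3 and 4 they lay between -0.27 and -0.09, and old replicate 2 lay lower at -1.22 and -1.26. For Iglv1, the junction probe printed above was above background on all 4 old and no young arrays, at -1.07, -2.51, -2.73 and -1.88, which was at least 2.37-fold higher, and 1.73-fold higher under normexp. The germline probe of the same segment was at least 2.30-fold higher, above background on 3 old and no young arrays. It shares 54 bases with the junction probe, so the pair gives no independent readings. The germline probe's signal does not show that unrearranged transcripts were present. Iglv3 was above background on 1 old array. Igll1, the surrogate light chain of B cell precursors, was above background on no array.

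**Figure D2:**
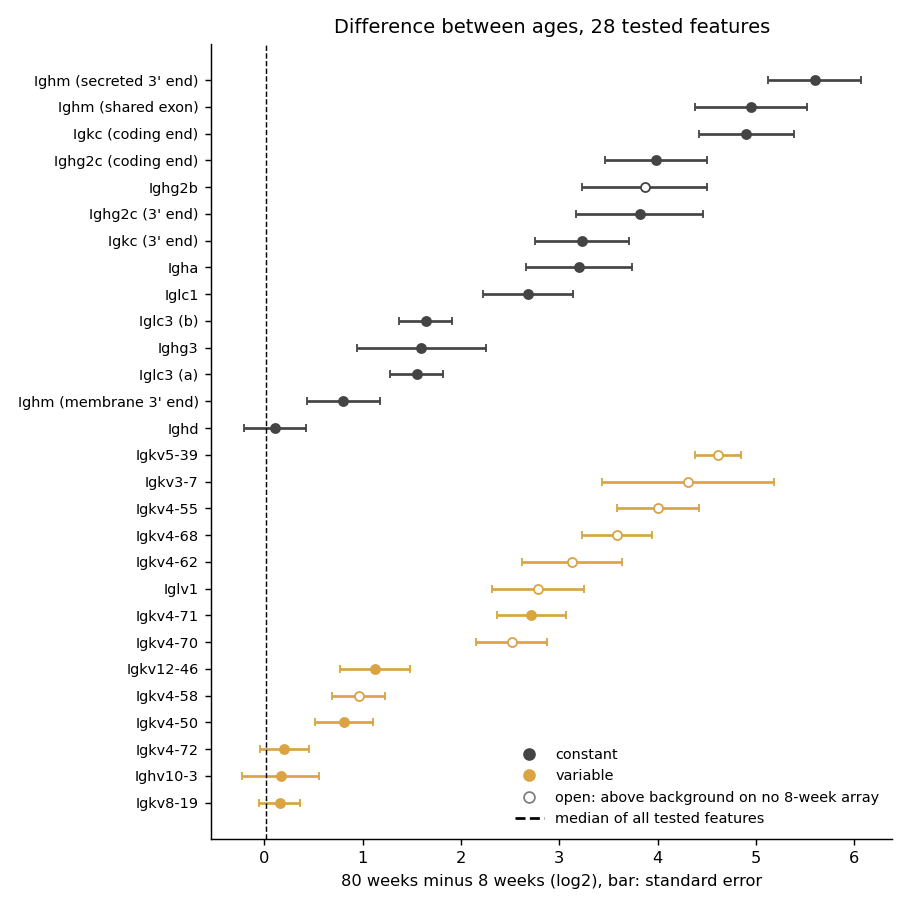
Difference between old and young livers (log2) with its standard error for the 28 tested immunoglobulin probes, constant segments in grey and variable segments in yellow; open symbols were above background on no young array. The dashed line is the median of all tested probes, 0.01; Ighd, Igkv4-72, Ighv10-3 and Igkv8-19 lie nearest to it.

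Most variable segment probes were dim, so they are described first by how many were above background. On young arrays 8, 6, 7 and 8 of the 210 were above background, and on old arrays 45, 19, 30 and 74. The count thus ranged widely among old livers but every old array exceeded every young one. By chain, kappa probes gave 15 to 48 on old arrays against 4 to 6 on young ones, and heavy probes 2 to 24 against 1 to 4. Of the whole set, 86 probes (36.9%) were above background on more old than young arrays and 3 on fewer, against 6.27% and 9.95% of all 56605 probes; these too follow from the contrast that was known. The 3 were Ighv1-36, Ighv1-42 and Ighv14-2, each seen on 1 young array. The share of all probes above background was 46.6% ± 2.86 in young and 45.2% ± 1.36 in old livers (SD, n = 4 each).

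**Figure D3:**
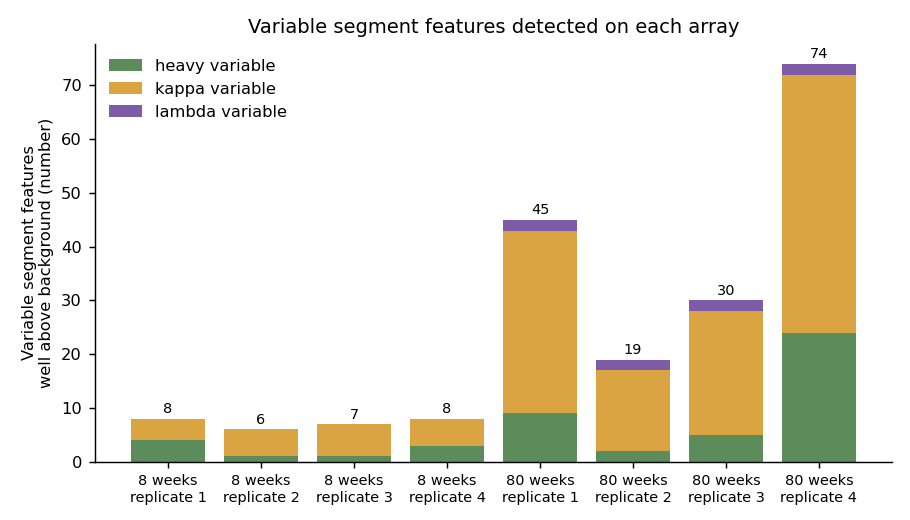
Number of variable segment probes well above background on each array, split into heavy, kappa and lambda. The young arrays show 6 to 8, the old arrays 19 to 74.

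Old replicate 4 had many variable segment probes that passed as above background on no other array. Of the 210 probes, 27 were above background on that array alone, against 2 on each of the other 3 old arrays, and 1, 0, 0 and 2 on the young arrays. The lowest level that passed as above background differed between arrays, from -3.86 to -2.70, and was -3.35 on old replicate 4. With a common level of -2.70 required on every array, old replicate 4 still had 18 such probes of its own and 59 in all, against 5, 3 and 1 of its own and 45, 17 and 25 in all in old replicates 1 to 3. Examples with a wide gap, named after their values were seen, are Ighv14-1, at -0.27 on old replicate 4 with no other array above -4.73, and Igkv6-15, at -1.85 against -3.96 at most elsewhere. Others of the 27 were not apart in level. Ighv1-9 stood at -2.80 on old replicate 4 and at -2.83 on the next highest array. Igkv4-86 stood at -3.08 there, below the -2.88 of another array that did not pass. The count of 27 is thus one of detection calls, not of segments confined to that liver. Single-array segments were not limited to that liver: one Ighv1-55 probe stood at -1.69 on old replicate 2 and at -4.20 or less on the rest, and Ighv1-42 stood at -1.76 on young replicate 1 and at -4.80 or less on the rest.

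The tested variable probes with the largest differences, which rest on young values near the scanner's floor and are therefore given as bounds, were all light chain. With 12 kappa, 1 lambda and 1 heavy variable probe tested, this does not compare the chains. Igkv5-39 was above background on no young array and stood at -0.71, -0.97, -1.02 and -1.10 in old livers, at least 5.06-fold higher. The 4 old arrays were within 0.39 of each other, whereas they spread from 4.72 to 7.18 at the secreted mu end. Igkv3-7 stood at 0.92, -2.87, -1.70 and 1.21 in old livers and was at least 6.41-fold higher, with old replicates 1 and 4 far above the others. Igkv4-55, Igkv4-68 and Igkv4-62 were at least 3.55-fold, 3.34-fold and 2.78-fold higher, each above background on all old and no young arrays, and so was Igkv4-70, at least 3.38-fold. Under normexp these 6 differed by less than the bounds, between 1.76-fold (Igkv4-70) and 3.45-fold (Igkv3-7).

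Igkv4-71 was above background on every array. It stood at -3.11, -3.49, -2.61 and -2.55 in young and at 0.30, -1.06, -0.43 and 0.28 in old livers, a difference of 2.71 (SE 0.35), which was 1.41 under normexp. The other variable probes that were bright in both ages differed little: Igkv4-72 by 0.20 (SE 0.25), Igkv8-19 by 0.15 (SE 0.21) and the only tested heavy variable probe, Ighv10-3, by 0.17 (SE 0.39). The ages overlapped for these 3, and without young replicates 1 and 2 the values for Igkv8-19 and Ighv10-3 were -0.10 and -0.28. Igkv4-50 and Igkv12-46, above background on 4 and 3 young arrays, lay between at 0.81 and 1.12, and at 0.35 and 0.47 under normexp. Igkv4-58, above background on no young array, was at least 1.80-fold higher by its tested probe, and 1.27-fold under normexp.

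Families of variable segments were represented unevenly among the probes seen. All 9 probes of kappa family 3 and 20 of 25 of kappa family 4 were above background on at least 1 old array. In kappa family 1 this held for 5 of 11, in family 6 for 4 of 11 and in family 8 for 3 of 9. Old replicate 4 carried much of this in some families: without it the counts were 1 of 11 in kappa family 1 and 1 of 11 in family 6, but 3 of 9 in family 8, 8 of 9 in family 3 and 18 of 25 in family 4. On 2 or more old arrays, 0 probes of kappa family 1, 1 of family 6, 8 of family 3 and 17 of family 4 were seen. The large heavy family 1 had 18 of 49, and 9 without old replicate 4, whereas none of the 7 probes of heavy family 3, the 6 of family 8 or the 5 of family 6 was seen. Within kappa family 3, Igkv3-4 stood at 0.62, -2.87, -1.53 and 0.57 in old livers by one probe (at least 5.61-fold higher) and at -0.92, -3.29, -2.63 and -2.17 by another. Igkv3-2 divided the old livers more sharply, at 0.22 and 0.95 in old replicates 1 and 4 and at -5.03 and -3.49, not above background, in old replicates 2 and 3.

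Sequence is shared within these families. In 32 pairs of probes for different segments a run of at least 30 bases was identical, and 37 variable probes were part of such a pair, Igkv4-68 and Igkv4-62 among them. A signal in one segment of a pair is therefore not independent of the other. GC content differed little between variable probes seen on an old array (median 45.8%, 82 probes) and those not seen on any (45.0%, 128 probes). The letters TATTACTG, searched on both strands, were in 23 of those 82 (28%) and 10 of those 128 (7.81%), and in 15.7% of all 210. By symbol, 207 of the 210 matched the RefSeq gene table of assembly GRCm38.p6, which types 10 of them as pseudogenes. Of those 10, 2 were seen on an old array, each on 1, and of the 197 typed as V segments 79 were. The latter type does not state that a segment is functional.

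Along the kappa locus, the probes seen were not spread evenly. Of the 34 variable probes nearest to Igkc (23 to 783 kb away) 16 were above background on an old array, of the next 33 (826 to 1864 kb) 25, and of the farthest 34 (1892 to 3171 kb) 12. Probes seen on at least 2 old arrays numbered 12, 21 and 2. Without old replicate 4 the counts were 12, 22 and 4. The middle stretch holds 22 of the 25 family 4 probes and the farthest the other 3, so family, position and shared sequence cannot be told apart in these counts. For heavy variable probes the counts seen on an old array were 6, 7 and 12 of 34 each, from the constant genes outward. They were 3, 3 and 7 without old replicate 4, and 2, 3 and 6 probes were seen on at least 2 old arrays.

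**Figure D4:**
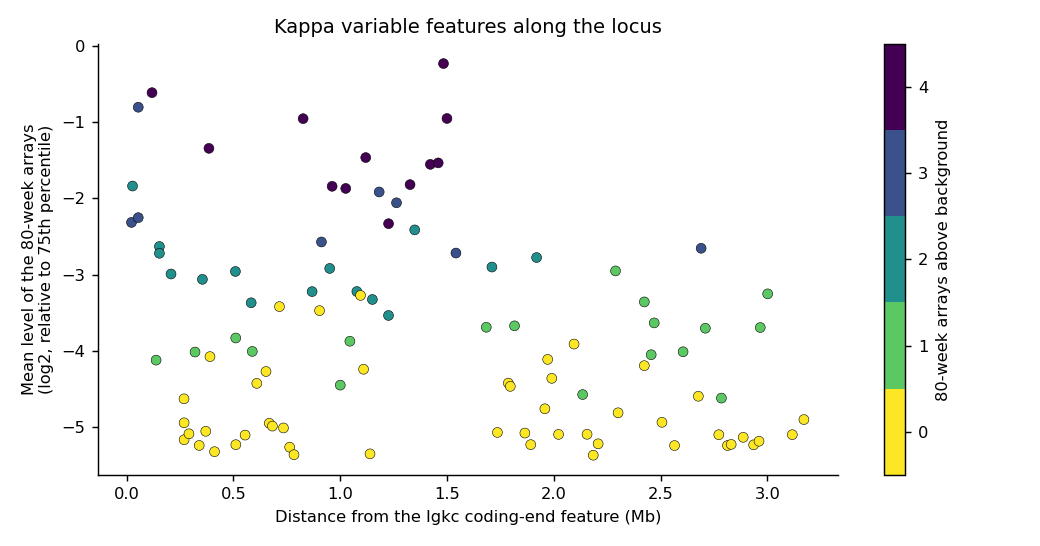
Mean level of the 4 old arrays (log2, relative to the 75th percentile) for 101 kappa variable probes against distance from the Igkc coding-end probe (Mb); colour gives the number of old arrays above background. Probes seen on all 4 old arrays lie within the first 1.5 Mb, and beyond 1.9 Mb 2 were seen on more than 1.

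Constant segments had the larger median difference between ages, by a margin that depends on which probes are counted. The median difference was 3.21 over the 14 tested constant probes and 2.61 over the 14 variable ones, against 0.01 for all tested probes. Averaged over probes on each array, the constant minus variable level was 1.61 ± 0.21 in young and 2.38 ± 0.46 in old livers (SD, n = 4 each), a change of 0.77 (SE 0.25). That comparison is weak, since 8 of the 14 variable probes but 1 of the 14 constant ones had no young array above background and their young values are near the scanner's floor. Among probes above background on all 8 arrays the medians were 2.42 for 8 constant and 0.20 for 5 variable probes.

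The old arrays kept much the same order over chains. Old replicate 2 was lowest among the 4 for 22 of the 28 tested immunoglobulin probes, and old replicates 1 and 4 were the highest pair for 21. Over all tested probes old replicate 2 was lowest for 21.5% and that pair highest for 11.6%. The spread among old arrays was wider than among young ones for 20 of the 28 probes, with a median SD of 0.72 in old and 0.44 in young livers. For all tested probes the medians were 0.30 in old and 0.40 in young livers. The 28 include 9 with no young array above background, whose young SD is that of signal near the scanner's floor. The SD of the 2 ages is therefore not alike in kind for those 9. Old replicate 2 was not the lowest for Ighg3, Ighv10-3, Igkv4-72, Igkv5-39, Igkv8-19 and Iglv1. Old replicates 1 and 4 were not the highest pair for Ighg3, Iglc1, both Iglc3 probes, Ighv10-3, Igkv5-39 and Igkv8-19.

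Genes that accompany antibody production were examined as lists beside the chains. Among 17 plasma cell and secretion genes, 12 were tested, 1 was higher past the threshold and 0 were lower, with a median difference of 0.35. The 1 was Jchain, which links polymeric antibodies, and it followed the same order as the secreted mu end: 1.47, -0.51, 0.74 and 1.81 in old livers, against -3.21, -6.13, -3.58 and -5.22 in young ones. Its difference was 5.41 (SE 0.70, limma adjusted p = 0.0143), higher in 4 of 4 old livers, and it was above background on 1 young array. The adjusted p ran from 0.00784 to 0.12 over the alternatives: it was 0.0511 without old replicate 3, 0.0545 without old replicate 4 and 0.12 without young replicates 1 and 2, and the difference was 2.75 under normexp.

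Other plasma cell genes were dim or gave no call. Mzb1, a chaperone of antibody-secreting cells, was above background on 3 old arrays (-2.34, -1.89 and -0.84) and no young one, at least 1.80-fold higher. Tnfrsf17 and Irf4 were above background on no array. Besides Jchain, only Sec11c and Xbp1 of this list had an unadjusted limma p under 0.05, and Xbp1 was lower in old livers. Of all 25738 tested probes, 3628 had such a p. Sec11c, a signal peptidase subunit, differed by 0.55 (SE 0.24, limma adjusted p = 0.352), Eaf2 by 0.68 (SE 0.32, limma adjusted p = 0.371) and Xbp1, the regulator of the secretory pathway that hepatocytes also use, by -0.61 (SE 0.23, limma adjusted p = 0.310). The summed level of the 17 as plasma cell markers, relative to the 75th percentile on a linear scale, was 331 to 505 in young and 316 to 386 in old livers and is carried by genes that liver cells express as well.

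B cell identity genes gave 0 calls in either direction in limma among 7 tested of 15, with 0 of the 7 at an unadjusted p under 0.05 and a median difference of 0.37. Of all 25738 tested probes, 3628 had an unadjusted limma p under 0.05. With so few genes tested, 0 of 7 does not show that B cell genes were unchanged. Cd22, an inhibitory B cell receptor, differed by 0.46 (SE 0.27, limma adjusted p = 0.441), Cd79b, a signalling partner of membrane antibody, by 0.49 (SE 0.46, limma adjusted p = 0.628) and Cd72 by 0.37 (SE 0.49, limma adjusted p = 0.734). Pax5, the B lineage factor, stood at -2.0 ± 0.35 in young and -2.02 ± 0.80 in old livers (SD, n = 4 each). Cd79a, Ebf1, Blk, Fcer2a and Bank1 were above background on no array. The summed level of the 15 ran from 2.89 to 3.61 in young livers and was 4.21, 3.06, 4.25 and 4.26 in old replicates 1 to 4. Only old replicate 2 thus lay within the young range. The part of B cell number in the immunoglobulin values was not tested.

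**Figure D5:**
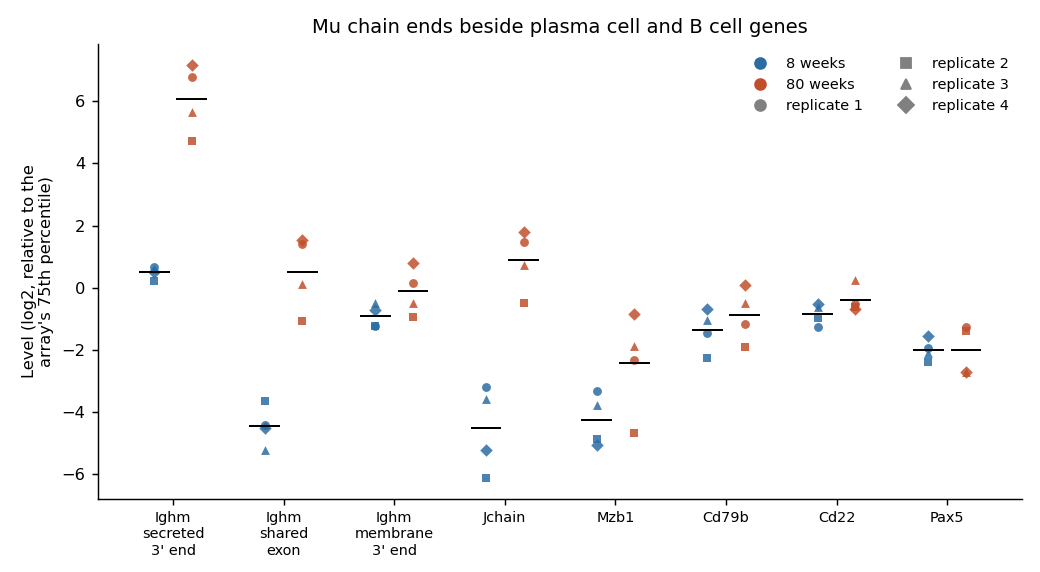
Levels (log2, relative to the 75th percentile) of the 3 Ighm probes beside Jchain and Mzb1 (plasma cell) and Cd79b, Cd22 and Pax5 (B cell) on the 4 young and 4 old arrays; bars are group means. Old and young arrays are apart for the secreted and shared Ighm probes and Jchain, and overlap for the membrane end, Mzb1 and the B cell genes.

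Antibody receptors and transporters gave 0 calls in limma among 8 tested of 9, with 0 of the 8 at an unadjusted p under 0.05 and a median difference of -0.20. Over all tested probes 3628 of 25738 had such a p, so nothing is read from this count or from those of the lists below. Fcgrt, the receptor that spares IgG from breakdown, differed by 0.56 (SE 0.34, limma adjusted p = 0.461), Fcgr3 by -0.42 (SE 0.26, limma adjusted p = 0.465), Fcgr1 by -0.43 (SE 0.44, limma adjusted p = 0.657) and Trim21, a cytosolic antibody receptor, by -0.38 (SE 0.27, limma adjusted p = 0.516). Pigr, which carries polymeric antibodies across epithelia, differed by 0.07 (SE 0.32). Among genes of recombination and switching, 3 of 9 were tested and 0 were called in limma, with 1, Dntt, at an unadjusted p under 0.05. Dntt, which adds bases at V(D)J joints, stood at -1.53 ± 0.85 in young and 0.14 ± 0.29 in old livers (SD, n = 4 each), a difference of 1.66 (SE 0.39, limma adjusted p = 0.147) without overlap. Ung differed by 0.28 and Vpreb3 by -0.18, and Rag1 and Rag2 were above background on no array. Among survival and homing signals, 7 of 12 were tested and 0 were called in limma, with 1 at an unadjusted p under 0.05. The smallest adjusted p was that of Cxcl12, a chemokine that holds plasma cells, at 0.231 for a difference of 0.86 (SE 0.24), followed by Il10 at 0.541, Cxcl13 at 0.615 and Tnfsf13b at 0.772.

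Other cell types were followed by their markers. Summed levels overlapped between ages for T cells (10.8 to 37.5 in young, 23.1 to 37.8 in old, with Cd3g and Cd8a above background on no array), hepatocytes (1936 to 3929 and 2681 to 4407), Kupffer cells (49.6 to 155 and 61.0 to 240) and neutrophils (77.3 to 150 and 25.9 to 122). Outside the set, the genes most like the mean of the tested constant probes within ages, by Pearson's r over the 8 arrays after each age's mean was subtracted, were Gm30848 (r = 0.99), Tanc2 (0.97), Ppt1 (0.96), 5730416F02Rik (0.96), Kank3, Lipo3, Grasp and Pdcl3 (0.93 to 0.95) and 2 transcripts without a symbol. Of 17541 genes, 15 had an r over 0.9 on these few arrays. Jchain had an r of 0.67 and ranked 386. It was above background on 1 young array only, so its young values lay mostly near the scanner's floor, which limits this r. Over the old arrays alone it followed the order of the secreted mu end, as given above.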

How the data were processed

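RNA from 4 young and 4 old livers was measured on 8 one-colour Agilent arrays with 62976 spots each. The authors deposited scanner files of spot intensity, background-subtracted by Feature Extraction 10.7.3.1 per the file headers; version 9.1 of Agilent Feature Extraction is named in the submitters' processing notes. Low spots carry a value set by that software. The authors' deposited table of intensity values matched these within 1% for 100% of probes, so it holds no scaling between arrays; it served as an alternative. It held 0 columns of other samples.

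The processed intensity was taken as log2, outlier spots (59 to 97 per array) were left out, repeat spots were averaged per probe, and values were scaled by subtracting the array's own 75th percentile (155 to 353 intensity units). Saturated spots numbered 0. The age contrast was fitted in R 4.3.3 with lmFit and eBayes of limma 3.58.1 over all 25738 probes above background on at least 4 arrays; p-values were adjusted by Benjamini and Hochberg's method, with 0.05 as threshold. The code was tested on simulated data. A probe above background on no array of an age is given as a bound ("at least"): the bright age's mean against the mean, over the dim age's arrays, of the higher of the probe's own level and the lowest level passing as above background. Such a bound holds only for the scanner's own background subtraction, and the fold under normexp can be smaller. The number of arrays limits the precision.

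The members, lists and rules were chosen with earlier results of these data known. Named are every constant probe, the 6 largest positive and negative differences and 4 brightest among the other tested members (0 were negative), up to 4 genes per list with the smallest p, and the 10 genes most alike; some list genes are not reported here. Replicate numbers carry no stated pairing. Alternatives were scaling, background correction, filters, variance prior, array weights, replicate block, outlier spots, the deposited table and left-out arrays; a common detection level, and counts by family and position without old replicate 4, were added after seeing the data. Positions (mm9) are those of the scanner files' annotation.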

Additional observations from a re-analysis of the deposited data

Results flagged for a closer look

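In 7 of 102 groups of 4 arrays, 1 array lay far from the other 3 by Dixon's criterion, where chance gives about 5%. Ighg3 stood at 0.54 in old replicate 4, with the other old arrays between -2.62 and -2.19. Both overlapping Iglc3 probes were low in old replicate 2, at -1.26 against -0.23 to -0.17 and at -1.22 against -0.27 to -0.09, and one of them was low in young replicate 3, at -2.43 against -2.0 to -1.98. Iglc1 was low in young replicate 2, at -3.79 against -3.36 to -3.34. Ighv10-3 was high in old replicate 1, at -1.35 against -2.31 to -2.24. Vpreb3, a list gene outside the set, was low in a young array, at -1.82 against -0.50 to -0.32.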

How the results depend on the processing

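Of 845 recomputed values for 43 single probes or genes, 822 kept their direction and side of the threshold or stayed within the replicate spread, and 20 moved beyond it, most of them under normexp, which adds an offset of 50 intensity units and so shrinks differences of dim probes. Ighd, Igkv8-19 and Ighv10-3 gave the 10 negative values among 468 for immunoglobulin probes. Median scaling shifted the median of all probes by -0.10 and gave 16 probes lower in old livers in place of 8. Under normexp 6 immunoglobulin probes were called, and the medians were 0.95 for all members tested, 1.98 for constant and 0.80 for variable ones, with constant minus variable at 1.24. Without a filter on dim probes 56 of 233 members did not overlap, against 2.72% of all probes, the medians were 0.75, 2.24 and 0.70, and constant minus variable was 1.42. Requiring all 8 arrays above background called 24 probes higher and 2 lower, 4 members and 0 list genes; 7 of 13 members did not overlap, against 4.32% of all probes, the medians were 1.55, 2.42 and 0.20, and constant minus variable was 1.82. With at least 1 array above background 52 of 104 members did not overlap, against 4.18% of all probes, and the medians were 1.78 overall and 1.61 for variable probes. Array weights called 135 higher and 25 lower. Without young replicates 1 and 2 there were 3 higher and 0 lower, with 1 member and 0 list genes.

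Leaving out 1 array at a time gave 27 to 86 probes higher, 2 to 21 lower, 6 to 17 members called and 0 to 1 list genes called. With the replicate number as a block 57 probes were higher and 19 lower, and the 13 members and 1 list gene called were as many as without it. Same-numbered samples correlated at 0.03, 0.14, 0.11 and 0.13 in their deviations, against 0.23, -0.0019, 0.10 and 0.04 for the best other old sample of young replicates 1 to 4. Not every pair was over 0.1 and no label states a pairing, so the samples were treated as unpaired. Young replicates 2, 3 and 4 correlated best with their own number. Same-numbered arrays also shared a slide column, so a pairing and an effect of slide column cannot be told apart. A block for slide or scan was not run, because there was 1 of each. At the common detection level young arrays held a mean of 5.25 variable probes in place of 7.25, and old arrays 36.5 in place of 42.0. Signal over background limits what the young livers can show: 207 of 233 members were above background on no young array.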
